A study of Mus musculus with 20 samples.

Results

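The 37 genes described here act in protein folding in the endoplasmic reticulum (ER) and in the unfolded protein response, and their transcripts were measured in mouse liver. They were chosen as the rows of the deposited count table that carry one of 37 listed gene symbols. Kept rows had a CPM (a read count scaled to a common library size) of at least 2 in at least 3 of the 20 mice, a filter that 12289 of 54532 listed genes passed. The symbols matched 38 rows, of which 37 passed. The row that did not was a second, 105-base entry for *Ddit3* with 0 counts in all mice. Of the members, 15 were chaperones and folding enzymes, 2 belonged to the translocon, 8 to ER-associated degradation, 5 to the sensors and transcription factors, 5 to the Atf4 arm and 2 were regulatory subunits of eIF2α phosphatases.

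Secreted and membrane proteins enter the ER through the translocon, fold with the help of chaperones and disulfide isomerases, and are sent back to the cytosol for degradation when folding fails. When unfolded protein accumulates, the membrane sensors IRE1α (encoded by *Ern1*), PERK (*Eif2ak3*) and ATF6 raise chaperone and degradation genes through spliced *Xbp1* and cleaved ATF6, while PERK phosphorylates eIF2α, slows translation and favours the translation of *Atf4*. *Atf4* is also induced when amino acids run short, without any folding problem. Hepatocytes secrete most plasma proteins and carry a large ER, and the liver-enriched ER factor CREB3L3 (CREBH) acts on lipid and acute-phase genes. Much of this signalling is by splicing, cleavage and phosphorylation, none of which can be read from counts per gene, and a count for *Xbp1* does not separate its spliced form.

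The livers came from male C57BL/6 mice that all ate a high-fat diet (HFD) until obese, over 12 weeks. They then had Roux-en-Y gastric bypass (RYGB) or a sham operation, and ate chow or HFD for 8 weeks more. The sham-operated groups are called Sham Chow and Sham HFD, and the bypass groups RYGB Chow and RYGB HFD, with 5 mice in each and 1 library per mouse. Chow groups are therefore formerly obese mice returned to chow, and no group was never given HFD. The study reports higher body weights in Sham HFD than in every other group, and it calls those groups lean. In contrasts that hold the Sham HFD mice, body weight cannot be told apart from diet or surgery. Livers were taken in the fasted state per the study's text.

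Library totals ran from 14604854 to 22537498 counts per mouse, with a median of 19056997. The 8 hepatocyte markers summed to between 75696 and 128655 CPM in each mouse. Their sum was 75696 to 87839 CPM in Sham HFD, 87161 to 106413 in Sham Chow and 105093 to 123392 in RYGB HFD. The 8 stellate cell markers went the other way, and 8 of 8 were higher in Sham HFD than in Sham Chow by edgeR's quasi-likelihood test at an adjusted p under 0.05. Stellate markers summed to 145 to 242 CPM in Sham Chow, 319.7 to 389 in Sham HFD and 207 to 310.5 in RYGB HFD. In RYGB Chow the hepatocyte sum was 77603 to 128655 CPM and the stellate sum 197 to 261. By the same test 3 of the 8 hepatocyte markers were lower in Sham HFD than in Sham Chow, and 0 were higher. In RYGB HFD relative to Sham HFD 5 were higher and 1 (*Ttr*) was lower, so the hepatocyte sum does not stand for each marker. The 8 Kupffer cell markers were lowest in Sham Chow, at 113 to 299 CPM in sum, beside 235 to 567 in RYGB Chow, 273 to 370.3 in Sham HFD and 241 to 441 in RYGB HFD. Of these 8, 5 were higher in Sham HFD relative to Sham Chow. In Sham Chow vs. RYGB Chow edgeR called 0 of them, with 8 at an unadjusted p under 0.05 and 3 higher by DESeq2. None of the stellate or Kupffer markers was at 0 in all mice. The part of these lists in the members' differences was not tested. In whole liver, fewer cells of a type and less RNA per cell cannot be told apart. Of 10 pancreatic acinar markers 1 passed the filter, *Prss1* was at 0 in all mice, and the list summed to 10.6 to 29.8 CPM. Of the other marker lists, sinusoidal endothelial cells (119.9 to 435 CPM) and red cells (99.0 to 461) had 0 calls in the 4 contrasts with edgeR and at most 2 and 1 genes at an unadjusted p under 0.05 in a contrast, B and plasma cells (12.0 to 46.3) had 1 (*Cd79b*) and cholangiocytes (18.1 to 59.3) 1 (*Spp1*).

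The members that differed between groups were *Xbp1*, *Ern1*, *Creb3l3*, *Atf4* and *Atf3* among the regulators, *Selenos* and *Herpud1* in degradation, and *Dnajb9*, *Manf* and *Hspa13* among the chaperones. Levels below are in CPM scaled with TMM factors, which balance composition between libraries. In the 4 contrasts these 10 of the 37 passed edgeR's quasi-likelihood test (adjusted p under 0.05 over the 12289 genes) at least once and 27 never did, where 30.5% of the tested genes passed at least once. Differences are log2 fold changes of the second group of a contrast over the first, with their standard error. In Sham Chow vs. Sham HFD, 1 member was higher and 7 were lower, where 10.9% and 10.7% of the tested genes were. In Sham HFD vs. RYGB HFD, 3 were higher and 3 lower, where 8.54% and 7.90% of tested genes were. RYGB Chow vs. RYGB HFD gave 0 higher and 1 lower, beside 1.99% and 1.65%. Sham Chow vs. RYGB Chow gave 0 in either direction with edgeR and with DESeq2, where edgeR called 0.0488% of the tested genes higher and 0.00814% lower. There 1 member had an unadjusted p under 0.05. All shares of the tested genes are for the adjusted p, and none was counted for an unadjusted p. The Sham HFD mice enter both of the contrasts with the most calls, so a difference of these mice from the rest appears in both with opposite signs.

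Scaling to library size alone, in place of TMM, moved the median of all tested genes to 0.12 in Sham Chow vs. Sham HFD and to -0.08 in Sham HFD vs. RYGB HFD, from values within 0.01 of 0. Under it 4 members were higher and 3 lower in the first of these contrasts, and 2 were higher and 8 lower in the other.

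**Figure D1:**
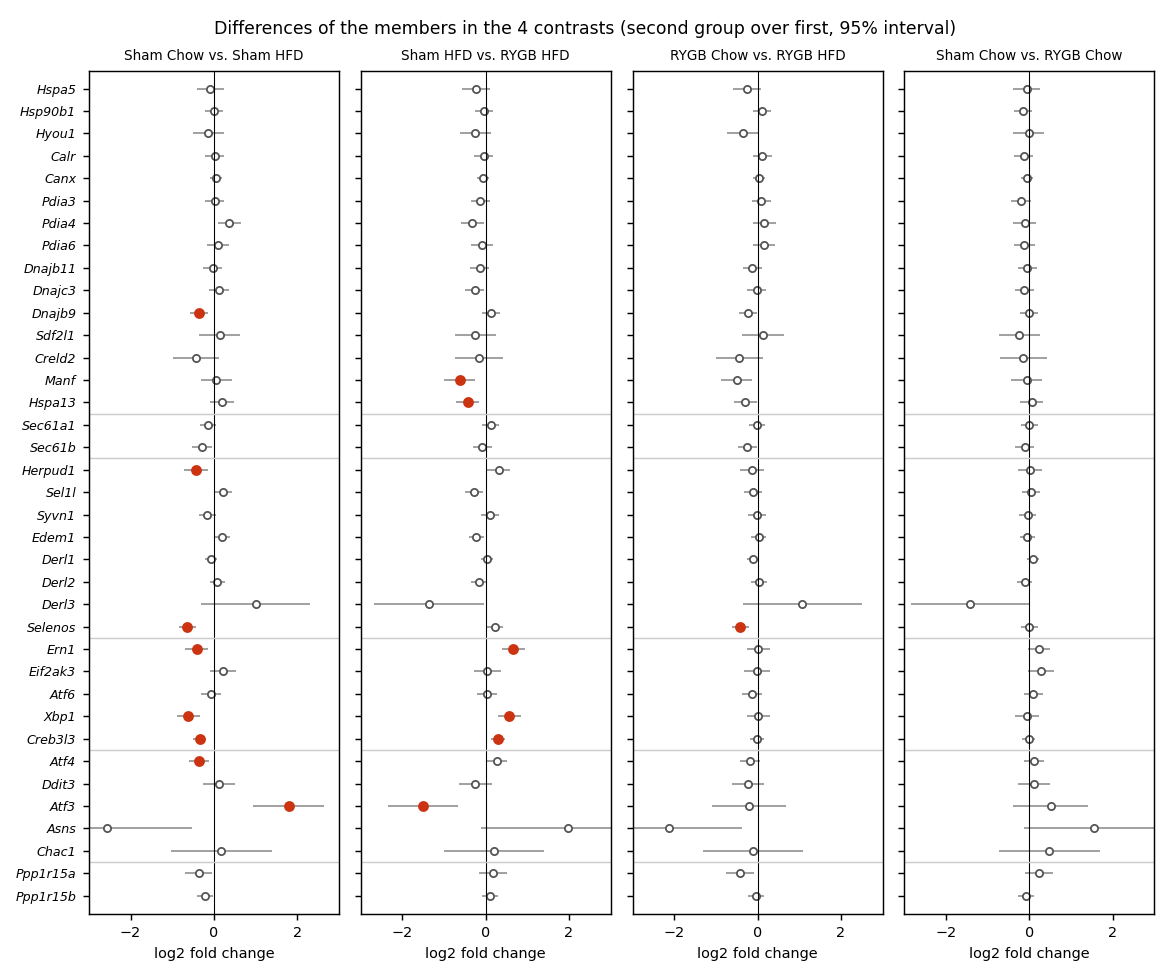
Log2 fold change of each member (rows, in the order of their roles, with lines between roles) in the 4 contrasts, second group over first, with the 95% interval of the fit cut at the axis ends. Filled points have an adjusted p under 0.05 in edgeR's test, and they lie mostly among the regulators in the 2 contrasts that hold the Sham HFD mice.

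Per kilobase of exon, the most abundant member was *Calr* (calreticulin, a lectin chaperone) at a mean of 196 CPM per kb over the 20 mice. It was followed by *Herpud1* at 139.8, *Creb3l3* at 136, *Pdia3* at 130.3, *Hsp90b1* at 125 and *Hspa5* at 103 CPM per kb. The lowest were *Atf3* at 0.747 and *Asns* at 1.22 CPM per kb. Spread between mice of a group also set members apart. The pooled coefficient of variation within groups was 121% for *Asns*, 82.9% for *Derl3*, 69.1% for *Chac1* and 47.4% for *Atf3*, against 6.37% for *Derl1*, 6.51% for *Canx* and 7.98% for *Creb3l3*. At or above 2 CPM in all 20 mice were 33 members, the other 4 being the same 4 most variable genes.

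**Figure D2:**
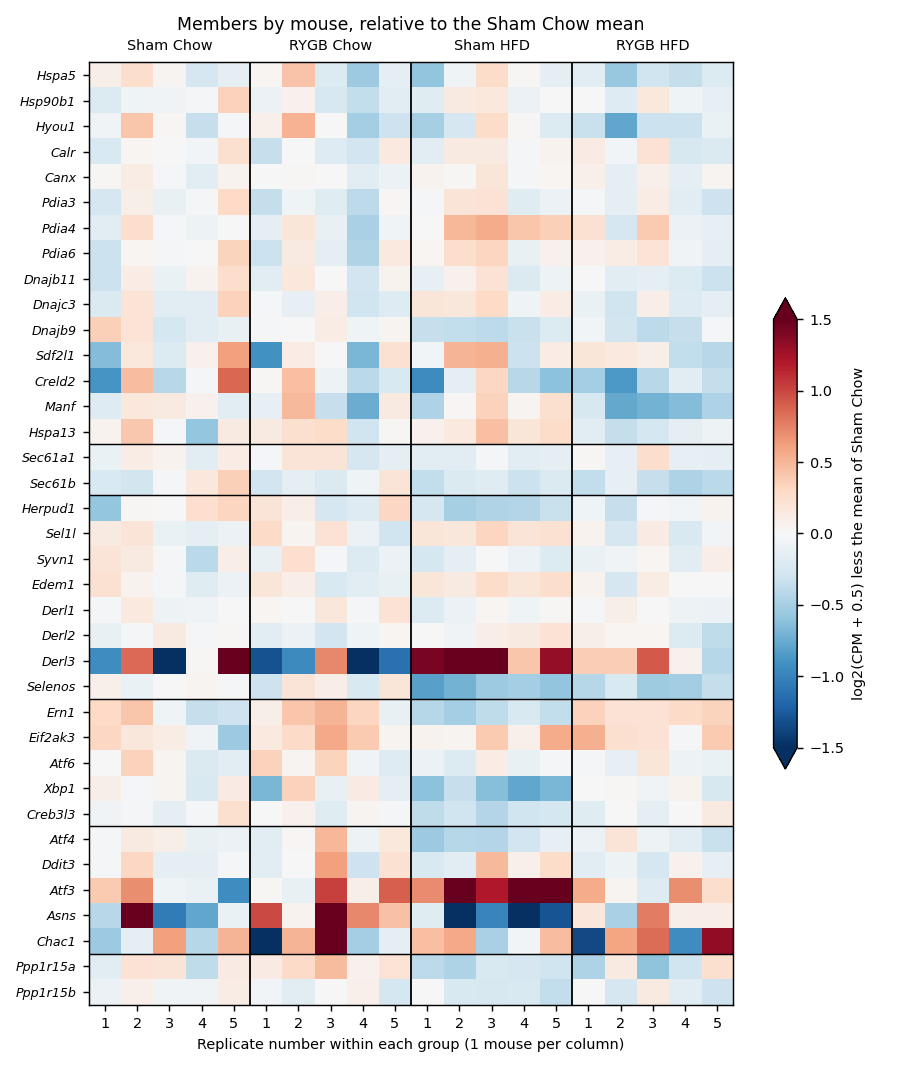
Log2(CPM + 0.5) of each member (rows) in each mouse (columns, replicates 1 to 5 of each group) less the mean of the Sham Chow mice, with colours ending at 1.5 in either direction. Chaperone rows vary within groups, whereas *Selenos*, *Xbp1*, *Creb3l3* and *Atf4* are low across the Sham HFD columns and *Atf3* is high there. *Selenos* is also low across the RYGB HFD columns.

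Promoters were searched for 3 classical elements of the pathway, and those of 7 members are shown because members from different roles hold different elements. RefSeq promoters of build GRCm38.p6, running from 250 bases before to 50 after the start, were present for 30 members. The ER stress response element, CCAAT and CCACG spaced 9 bases apart on either strand, stood in 39 of all 32851 promoters (0.119%). It stood in the promoters of 9 of the 30 members, namely *Calr*, *Canx*, *Creld2*, *Derl3*, *Dnajc3*, *Hsp90b1*, *Hspa5*, *Pdia6* and *Syvn1*, of which 7 are among the 12 matched chaperones. Capitals mark CCAAT and CCACG, or their complements on the other strand. The *Hspa5* window is chr2:34772005-34772063 on the plus strand, with the element beginning 65 bases before the start. The *Calr* window is chr8:84847055-84847113 on the minus strand, the *Dnajc3* window chr14:118937807-118937865 on the plus strand, and the upstream window of *Hsp90b1*, which holds the element at 2 places, chr10:86705618-86705676 on the minus strand.
Hspa5: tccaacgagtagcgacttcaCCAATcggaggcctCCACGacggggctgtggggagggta
Calr: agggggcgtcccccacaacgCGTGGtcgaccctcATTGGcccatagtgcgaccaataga
Dnajc3: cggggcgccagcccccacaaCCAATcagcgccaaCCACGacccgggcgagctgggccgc
Hsp90b1: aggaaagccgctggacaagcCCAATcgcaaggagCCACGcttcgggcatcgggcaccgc

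The amino acid response element, TTGCATCA on either strand, to which ATF4 dimers bind, was found in 294 promoters (0.895%). Among members it was found in *Atf3*, *Chac1* and *Herpud1*, and in 0 of the 12 chaperones. Their windows are chr1:191183416-191183463 on the minus strand, chr2:119351029-119351076 on the plus strand and chr8:94386297-94386344 on the plus strand, with the 8 bases in capitals.
Atf3: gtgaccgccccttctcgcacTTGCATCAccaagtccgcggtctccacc
Chac1: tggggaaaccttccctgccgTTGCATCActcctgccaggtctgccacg
Herpud1: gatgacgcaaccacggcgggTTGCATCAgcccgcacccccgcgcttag

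The core of the unfolded protein response element, TGACG directly followed by TGG, on either strand, was found in 222 promoters (0.676%) and in 0 of the members. Of the 9 members with the ER stress response element 0 passed edgeR's test in any of the 4 contrasts and 2 had an unadjusted p under 0.05, and of the 3 with the amino acid response element *Atf3* and *Herpud1* passed. Of all tested genes 30.5% did, these sets are small, and no difference between them was tested. These matches describe the letters of a short window and no binding was measured.

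Of the 15 chaperones and folding enzymes 3 passed the test in a contrast (*Dnajb9*, *Manf* and *Hspa13*), and 12 passed in none. Their median difference for surgery was -0.11 on chow and -0.16 on HFD. In the diet contrasts it was 0.02 for sham and -0.02 for RYGB mice, and the medians of all tested genes lay within 0.01 of 0 throughout. In each of the 2 surgery contrasts 14 of the 15 had a negative fitted difference, with *Dnajb9* the exception under HFD and *Hspa13* under chow. These genes rose and fell together within single mice, so the 14 are not separate observations. The share of all tested genes with a negative difference was not counted. On chow 0 of the 15 passed, and their differences ran from -0.24 to 0.05.

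*Hspa5* encodes BiP, the ER member of the Hsp70 family that holds the sensors inactive. It measured 498, 563, 484, 394 and 428 CPM in the Sham Chow mice and 479, 633, 406, 320.4 and 424 in the RYGB Chow mice. Sham HFD mice had 311, 448, 567, 475 and 423, and RYGB HFD mice 419, 317, 383, 367 and 408 CPM. The groups overlapped in each contrast, and mice of a group were up to 1.97 times apart. Its difference was -0.09 ± 0.16 in Sham Chow vs. Sham HFD (95% interval -0.42 to 0.24, adjusted p = 0.719). The surgery difference under HFD was -0.23 ± 0.16 (interval -0.56 to 0.10, adjusted p = 0.341). In RYGB Chow vs. RYGB HFD it was -0.25 ± 0.16 and in Sham Chow vs. RYGB Chow -0.06 ± 0.16, with adjusted p = 0.409 and 0.926.

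*Manf* encodes a small secreted ER protein of the stress response. It measured 28.2, 39.6, 49.8, 40.4 and 46.3 CPM in Sham HFD and 33.2, 22.9, 23.7, 24.7 and 28.2 CPM in RYGB HFD. It was lower after RYGB under HFD (-0.62 ± 0.18, adjusted p = 0.0213), with overlap because of Sham HFD replicate 1 at 28.2 and RYGB HFD replicate 1 at 33.2 CPM. In Sham Chow it measured 34.1, 43.7, 43.1, 41.0 and 34.9 and in RYGB Chow 35.9, 55.1, 30.7, 23.3 and 42.9 CPM, a range that covers most of the other mice. Without Sham HFD replicate 3 or 5 or RYGB HFD replicate 2 the adjusted p was 0.0534 to 0.0611. Exons of *Manf* share 146 bases with *Dcaf1* on the opposite strand, which had 33.5 CPM on average beside 36.0 for *Manf*, and the strand setting of the counting is not given in the sources used here.

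*Hspa13* encodes an Hsp70-like ATPase of microsomes. It measured 31.1, 33.0, 40.6, 33.8 and 35.9 CPM in Sham HFD and 26.5, 23.1, 24.7, 26.9 and 28.0 in RYGB HFD, and the groups did not overlap. Its difference there was -0.43 ± 0.14 (adjusted p = 0.0321). On chow the sham mice had 30.8, 39.5, 29.4, 19.7 and 32.5 CPM and the RYGB mice 32.7, 35.2, 35.9, 24.0 and 30.1 CPM, so the groups lay across each other. Leaving out Sham HFD replicate 3 or 5, or RYGB HFD replicate 2, 3 or 4, took its adjusted p to between 0.0512 and 0.0858.

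*Dnajb9* encodes ERdj4, a BiP co-chaperone that represses IRE1α. It measured 55.9, 50.04, 36.0, 38.5 and 40.1 CPM in Sham Chow and 34.2, 33.4, 32.9, 34.4 and 37.7 CPM in Sham HFD, and it was lower in the latter (-0.35 ± 0.10, adjusted p = 0.0195). Only Sham Chow replicate 3, at 36.0 CPM, fell inside the Sham HFD range. In RYGB Chow it had 43.0, 43.3, 47.0, 41.5 and 44.8 and in RYGB HFD 42.3, 35.8, 33.1, 34.2 and 42.5 CPM, a difference of -0.22 ± 0.10 (adjusted p = 0.245). Without Sham Chow replicate 1 or 2, the mice with the highest values, the adjusted p was 0.0604 and 0.0512. With library size only the difference was -0.23 (adjusted p = 0.174).

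Of the other chaperones, the disulfide isomerase *Pdia4* came closest to the threshold, with 156 ± 18.3 CPM (SD, n = 5) in Sham Chow and 202 ± 28.1 in Sham HFD and a difference of 0.37 ± 0.13 (edgeR, adjusted p = 0.0508). DESeq2, the library-size scaling, a minimum of 5 CPM and a fit of only the groups of the contrast called it higher. With library size only it was also called lower in Sham HFD vs. RYGB HFD. The remaining 10 chaperones had fitted differences between -0.44 and 0.15 over the 4 contrasts, the lowest for *Creld2* and the highest for *Pdia6*, both in RYGB Chow vs. RYGB HFD. Among these, *Dnajc3* was called lower in Sham HFD vs. RYGB HFD with library size only and with only the groups of the contrast.

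Within groups the chaperones followed the mouse. Sham HFD replicate 3 had the highest CPM of its group for 14 of the 15, and RYGB Chow replicate 4 the lowest of its group for 13 of the 15. Sham Chow replicate 1 was the lowest of its group for 10, and Sham Chow replicate 5 the highest for 8. The median of the 15 relative to the Sham Chow mean ran from -0.12 to 0.27 in Sham HFD, -0.25 to 0.08 in RYGB HFD, -0.21 to 0.24 in Sham Chow and -0.39 to 0.13 in RYGB Chow. All 4 ranges overlapped.

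Of the 2 translocon members, *Sec61a1* (the pore) and *Sec61b*, 0 passed the edgeR test in any contrast, and *Sec61b* had an unadjusted p under 0.05 in Sham Chow vs. Sham HFD and in RYGB Chow vs. RYGB HFD. Its differences there were -0.28 ± 0.11 (adjusted p = 0.077) and -0.24 ± 0.11 (adjusted p = 0.242). DESeq2 also called 0 of them.

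Among the 8 genes of ER-associated degradation, *Selenos* and *Herpud1* were lower in Sham HFD than in Sham Chow, and *Selenos* was also lower in RYGB HFD than in RYGB Chow. *Selenos* encodes selenoprotein S, a membrane partner of the retrotranslocation complex. It measured 54.3, 48.2, 52.1, 53.0 and 51.0 CPM in Sham Chow and 29.2, 31.5, 35.3, 36.1 and 34.0 in Sham HFD, and the highest of the latter was below the lowest of the former. In RYGB Chow it measured 41.5, 59.2, 55.3, 44.1 and 58.6 and in RYGB HFD 38.3, 44.1, 35.6, 35.9 and 40.2 CPM, which overlapped. Both diet differences passed, at -0.64 ± 0.10 (fold 0.643, adjusted p = 0.000114) in sham mice and -0.41 ± 0.10 (fold 0.750, adjusted p = 0.0193) in RYGB mice. It was the one member called in both diet contrasts, and the interaction was 0.22 ± 0.13 (adjusted p = 0.363). The sham difference kept its call in the 20 fits that leave out 1 mouse and in the 7 other settings, while that of RYGB mice lost it without RYGB HFD replicate 3 or 4 (adjusted p = 0.0557 and 0.0538) and in a fit of those 2 groups alone (0.0888).

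*Herpud1* encodes a ubiquitin-like membrane protein that assembles the degradation complex. It measured 231, 349.6, 345, 413 and 434 CPM in Sham Chow and 291, 246, 253, 255 and 274 CPM in Sham HFD, where Sham Chow replicate 1 was below all Sham HFD mice and the other 4 were above them. In RYGB Chow it had 396, 370.1, 292, 303 and 432 and in RYGB HFD 330.1, 273, 339, 336 and 359 CPM. The diet difference in sham mice was -0.43 ± 0.14 (adjusted p = 0.0295). It lost the call without Sham Chow replicate 4 or 5 or Sham HFD replicate 2, 3 or 4 (adjusted p 0.0608 to 0.0912) and with library size only (0.0727). For surgery under HFD the difference was 0.31 ± 0.14 (edgeR, adjusted p = 0.122). A fit of only the groups of that contrast called it higher in RYGB HFD (adjusted p = 0.0137).

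The other 6 degradation genes did not pass in any contrast. *Edem1* and *Sel1l*, which hand misfolded glycoproteins to the ubiquitin ligase encoded by *Syvn1*, were nearest in Sham HFD vs. RYGB HFD. *Edem1* had 210.3 ± 8.72 CPM in Sham HFD and 180.3 ± 16.7 in RYGB HFD (SD, n = 5), a difference of -0.22 ± 0.09 (edgeR, adjusted p = 0.0963). *Sel1l* had 168 ± 7.33 and 138 ± 16.1 CPM, a difference of -0.28 ± 0.10 (edgeR, adjusted p = 0.064). *Sel1l* was called lower in this contrast by DESeq2, with library size only, with a minimum of 5 CPM, with only the groups of the contrast and with a replicate block, and *Edem1* with library size only and with only the groups of the contrast. For both genes the 2 groups did not overlap. *Derl3* was low and uneven, from 0.416 CPM in Sham Chow replicate 3 to 19.8 in Sham HFD replicate 2, and its differences had standard errors of 0.63 to 0.68. It passed in no contrast, with adjusted p between 0.153 and 0.459. A fit of only the groups of the contrast called *Derl3* lower in Sham HFD vs. RYGB HFD, and library size only called *Derl2* lower there.

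The sensors and transcription factors held the clearest pattern of these genes: *Xbp1*, *Ern1* and *Creb3l3* were lowest in Sham HFD, and each passed in both contrasts that hold those mice. The median of the 5 genes was -0.34 in Sham Chow vs. Sham HFD and 0.30 in Sham HFD vs. RYGB HFD. For surgery on chow it was 0.10 and for diet in RYGB mice -0.02. *Eif2ak3* and *Atf6* passed in no contrast, with adjusted p of at least 0.313 and 0.559.

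*Xbp1* (chr11:5520659-5525893, GRCm38), the transcription factor whose mRNA IRE1α splices, measured 286, 267, 278, 229.7 and 294 CPM in Sham Chow and 176, 213, 174, 156 and 168 CPM in Sham HFD. In RYGB HFD it measured 268, 274, 260.0, 279 and 229 CPM, and all mice there were above all Sham HFD mice. RYGB Chow was the uneven group, with 168, 343, 251, 294 and 244 CPM, and its replicate 1 lay among the Sham HFD values. The difference was -0.61 ± 0.13 in Sham Chow vs. Sham HFD (fold 0.654, adjusted p = 0.00296). Under HFD it was 0.56 ± 0.13 for RYGB over sham mice (fold 1.48, adjusted p = 0.00567). It held its call in the 7 other settings and in the 20 fits without 1 mouse in both contrasts.

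*Ern1* (chr11:106394650-106487852, GRCm38) had 58.1, 54.8, 60.0, 66.9 and 60.6 CPM in Sham HFD and 99.2, 90.9, 90.7, 95.5 and 98.8 CPM in RYGB HFD, and the groups stood well apart. On chow it varied more, with 96.5, 104, 74.9, 61.5 and 63.0 CPM in sham and 83.2, 105, 112, 98.1 and 72.6 CPM in RYGB mice. It was higher in RYGB HFD than in Sham HFD by 0.66 ± 0.13 (fold 1.58, adjusted p = 0.00167), the smallest adjusted p of a member in that contrast. In Sham Chow vs. Sham HFD it was lower (-0.42 ± 0.13, adjusted p = 0.0291), with 2 of the 5 Sham Chow mice inside the Sham HFD range. That call was lost without Sham Chow replicate 1 or 2 or Sham HFD replicate 1, 2, 3 or 5 (adjusted p 0.0524 to 0.0920) and with library size only (0.178).

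*Creb3l3* (chr10:81084324-81098874, GRCm38) had 336, 355, 322, 356 and 362 CPM in Sham HFD. RYGB HFD mice had 385, 437, 395, 438 and 478 CPM. On chow it had 420.0, 426, 395, 432 and 516 CPM in sham and 439, 455, 383, 449.9 and 433 CPM in RYGB mice. It was the one member for which the 5 Sham HFD mice lay below the other 15 mice, with 362 CPM as the highest of the former and 383 as the lowest of the latter. Of the tested genes 2.31% lay so, so 1 of 37 is near that share. Its differences were small and even, at -0.34 ± 0.08 in Sham Chow vs. Sham HFD (fold 0.790, adjusted p = 0.00446) and, for surgery under HFD, 0.30 ± 0.08 (fold 1.23, adjusted p = 0.0113). Scaled to library size alone the latter was 0.21 (adjusted p = 0.0501).

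**Figure D3:**
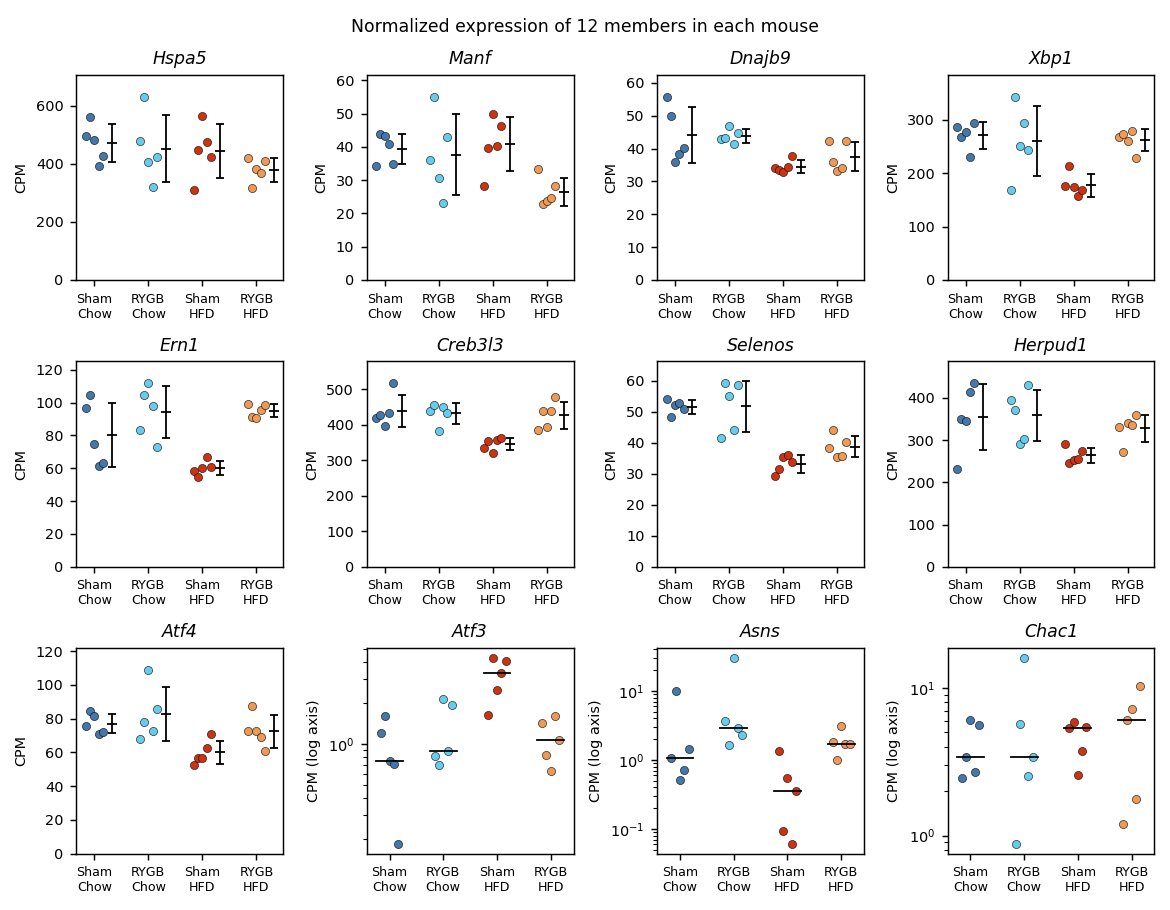
CPM of 12 members in each mouse (points, replicates 1 to 5 from left to right) by group. Black bars give the mean and SD of 5 mice on linear axes that start at 0, and the median on the log axes of *Atf3*, *Asns* and *Chac1*. *Xbp1*, *Ern1*, *Creb3l3* and *Selenos* sit low in Sham HFD, and the mean of *Selenos* is also lower in RYGB HFD than in either chow group. *Hspa5* spans like ranges in the 4 groups, and single chow-fed mice stand out for *Asns* and *Chac1*.

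*Atf4* and *Atf3* in the Atf4 arm differed between Sham Chow and Sham HFD in opposite directions, and *Ddit3*, *Asns* and *Chac1* passed in no contrast. The arm's median difference was 0.48 for surgery on chow and 0.20 for surgery on HFD. In the diet contrasts it was 0.12 for sham and -0.22 for RYGB mice.

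*Atf4*, the transcription factor that gives the arm its name, had 76.0, 84.4, 81.5, 71.2 and 72.1 CPM in Sham Chow and 52.5, 57.0, 56.7, 62.8 and 70.8 in Sham HFD, and the groups did not overlap by a margin of 0.37 CPM. In RYGB Chow it had 68.2, 78.0, 109, 72.9 and 85.9 and in RYGB HFD 72.5, 87.7, 72.9, 69.1 and 60.7 CPM. Its transcript was lower in Sham HFD (-0.36 ± 0.12, adjusted p = 0.0302). The call was lost without Sham Chow replicate 2 or 3 or Sham HFD replicate 1, 2 or 3 (adjusted p 0.0653 to 0.0767), and with library size only (-0.24, adjusted p = 0.231). Since *Atf4* is controlled mainly at translation, its transcript is a partial measure of the arm.

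*Atf3*, an immediate stress-response factor, was the one member called higher in Sham HFD. It had 1.62, 4.30, 2.49, 3.29 and 4.03 CPM in Sham HFD and 1.21, 1.60, 0.740, 0.714 and 0.182 CPM in Sham Chow. In RYGB Chow it had 0.817, 0.700, 2.14, 0.880 and 1.92 CPM and in RYGB HFD 1.41, 0.833, 0.634, 1.60 and 1.06 CPM, so its highest 4 values of all mice were Sham HFD mice. The difference was 1.80 ± 0.41 in Sham Chow vs. Sham HFD (edgeR, adjusted p = 0.00417) and, for surgery under HFD, -1.51 ± 0.41 (adjusted p = 0.014). The groups overlapped in neither, but only narrowly. The lowest Sham HFD mouse had 1.62 CPM, and the highest of Sham Chow and of RYGB HFD each had 1.60. These are 28 to 93 reads per mouse in Sham HFD and 3 to 39 in the other groups. *Atf3* passed the CPM filter through 5 mice, 4 of them in Sham HFD, and a minimum of 5 CPM left it out. It was thus tested mainly because of the group where it is high, and its calls are to be read with that limit.

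*Asns*, asparagine synthetase, ranged most widely of all members. It had 1.06, 10.1, 0.509, 0.714 and 1.45 CPM in Sham Chow and 3.65, 1.67, 30.4, 2.93 and 2.32 CPM in RYGB Chow, each with 1 mouse far above the rest. In Sham HFD it had 1.33, 0.0925, 0.549, 0.0599 and 0.351 CPM, which is 1 to 23 reads, and in RYGB HFD 1.85, 0.989, 3.06, 1.72 and 1.73 CPM. The difference of -2.56 ± 0.98 in Sham Chow vs. Sham HFD gave an adjusted p of 0.0667 in edgeR and 0.0323 in DESeq2. Without Sham Chow replicate 2 it was -0.98 (adjusted p = 0.477), without Sham HFD replicate 1 -3.30 (0.0463) and without RYGB Chow replicate 3 -2.56 (0.0204). In Sham HFD vs. RYGB HFD it was 1.98 ± 1.01 (adjusted p = 0.189). *Asns* passed the CPM filter through 6 mice, 4 of them in RYGB Chow and 0 in Sham HFD, and it counts in the medians of the arm.

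*Chac1*, which degrades glutathione, had 2.46, 3.42, 6.11, 2.71 and 5.64 CPM in Sham Chow and 0.871, 5.66, 16.04, 2.54 and 3.40 CPM in RYGB Chow. In Sham HFD it had 5.39, 5.92, 2.58, 3.71 and 5.44 and in RYGB HFD 1.20, 6.04, 7.21, 1.77 and 10.4 CPM. No contrast passed, with adjusted p between 0.816 and 0.951, and the intervals were wide (-1.04 to 1.39 in Sham Chow vs. Sham HFD).

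*Ddit3* encodes CHOP, the pro-apoptotic factor of prolonged ER stress. It had 4.97, 6.37, 4.53, 4.498 and 4.97 CPM in Sham Chow and 4.23, 4.44, 7.26, 5.33 and 6.18 CPM in Sham HFD, with a difference of 0.12 ± 0.18 (interval -0.27 to 0.50, adjusted p = 0.68). In RYGB Chow it had 4.41, 5.01, 7.97, 3.96 and 6.00 and in RYGB HFD 4.46, 4.74, 4.15, 5.26 and 4.59 CPM. All 4 groups overlapped. Its exons share 68 bases with *Mars* on the opposite strand, at 61.4 CPM against 5.18 for *Ddit3*. *Syvn1* and *Derl2* likewise share 91 and 231 exon bases with *Mrpl49* and *Mis12*.

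The chaperones and the Atf4 arm were compared by their medians. The chaperone median less the arm median was -0.59 for surgery on chow and -0.36 for surgery on HFD. For diet it was -0.09 in sham and 0.20 in RYGB mice. These are descriptions of 15 and 5 genes, and the same difference taken in single mice had a pooled SD within groups of 0.339. The Sham Chow vs. RYGB Chow value rested on 1 mouse, and without RYGB Chow replicate 3 it was -0.04. That of Sham HFD vs. RYGB HFD was 0.01 without RYGB HFD replicate 5, and with a minimum of 5 CPM the former was -0.22.

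Single mice did part the sets. RYGB Chow replicate 3 had the highest value of its group for 5 of the 5 arm genes, and the highest of the 20 mice for *Atf4* (109 CPM), *Ddit3* (7.97), *Asns* (30.4) and *Chac1* (16.04). Its *Asns* value was 19.4 times the median of the 20 mice, and its *Chac1* value 3.52 times. Its arm median was 1.03 above the Sham Chow mean on the log2 scale and its chaperone median -0.08. The same library had the highest Kupffer marker sum of the 20 mice (567 CPM), the lowest hepatocyte marker sum outside Sham HFD (77603 CPM, where the other RYGB Chow mice had 92559 to 128655) and the highest TMM factor (1.13), and their part in its arm values was not tested. Sham Chow replicate 2 was highest of its group for 4 of the 5 arm genes, with an arm median of 0.31 and a chaperone median of 0.16. Conversely, Sham HFD replicate 3, the highest of its group for 14 chaperones, had the lowest arm median of the 20 mice, at -0.44 beside 0.27 for the chaperones. The arm genes were split in that mouse. Its *Ddit3* value was the second highest of the 20 mice (7.26 CPM), and its *Chac1* value the lowest of its group (2.58 CPM).

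**Figure D4:**
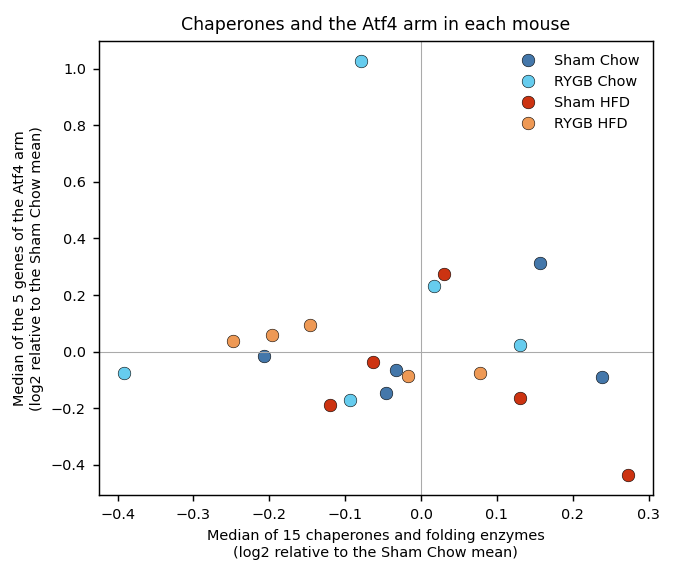
Each point is 1 mouse, with the median of the 15 chaperones and folding enzymes on the x axis and that of the 5 genes of the Atf4 arm on the y axis, both as log2(CPM + 0.5) less the mean of the Sham Chow mice. RYGB Chow replicate 3 stands alone at 1.03 on the y axis, while the 4 groups overlap on both axes.

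The eIF2α phosphatase subunits *Ppp1r15a* (GADD34, induced by stress) and *Ppp1r15b* (constitutive) passed in no contrast with edgeR or DESeq2. *Ppp1r15a* had 9.65 ± 1.72 CPM in Sham Chow and 7.498 ± 0.522 in Sham HFD (SD, n = 5), a difference of -0.37 ± 0.16 (edgeR, adjusted p = 0.102). In RYGB Chow vs. RYGB HFD it was -0.42 ± 0.16 (adjusted p = 0.153). *Ppp1r15b* differed by -0.21 ± 0.09 in Sham Chow vs. Sham HFD (adjusted p = 0.0934).

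Members whose groups did not overlap were also counted, and they were not always those that passed the test. In Sham HFD vs. RYGB HFD 7 members were without overlap (*Hspa13*, *Sel1l*, *Edem1*, *Ern1*, *Xbp1*, *Creb3l3* and *Atf3*), where 14.7% of the tested genes were. The diet contrast of sham mice had 5 (*Selenos*, *Xbp1*, *Creb3l3*, *Atf4* and *Atf3*), beside 16.5%. *Atf3* is in both counts by a narrow margin, and it passed the CPM filter mainly through Sham HFD mice. The diet contrast of RYGB mice had 0, beside 5.05% of the tested genes, and Sham Chow vs. RYGB Chow had 0, beside 1.33%.

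Whether the diet difference depended on surgery was tested as the surgery by diet interaction, the difference in RYGB mice less that in sham mice. No member passed with edgeR, where 2.48% of the tested genes were higher and 2.58% lower. At an unadjusted p under 0.05 there were 7 members, for which no share of all tested genes was counted. With DESeq2 *Xbp1* was higher and *Atf3* lower. In edgeR *Xbp1* had 0.62 ± 0.19 (adjusted p = 0.0592), *Atf3* -2.01 ± 0.59 (adjusted p = 0.0527) and *Creb3l3* 0.32 ± 0.11 (adjusted p = 0.0981). *Xbp1* passed without RYGB Chow replicate 2 or Sham HFD replicate 2 (adjusted p = 0.0161 and 0.0461), and *Atf3* without Sham Chow replicate 2, RYGB Chow replicate 2 or Sham HFD replicate 1 (0.0250 to 0.0382). *Hspa13* passed without Sham Chow replicate 2 (-0.60, adjusted p = 0.0499).

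Further genes of the pathway were followed in lists of related function. Their counts are to be read beside the shares of all tested genes, which were 10.9% higher and 10.7% lower in Sham Chow vs. Sham HFD, 8.54% and 7.90% under HFD for surgery, and 2.48% and 2.58% in the interaction. Of 25 oxidoreductases and foldases tested, 7 were lower and 0 higher in Sham HFD relative to Sham Chow, and 6 were higher and 1 lower in RYGB HFD relative to Sham HFD. The list's medians were -0.14 and 0.09. *Pdia5*, a disulfide isomerase, differed by -0.80 ± 0.09 and 0.83 ± 0.09 in these contrasts. *Qsox1* differed by 0.69 ± 0.11 and *Ppib* by 0.62 ± 0.12 in the latter, and *Prdx4* by -0.41 ± 0.08 and *Tmx4* by -0.52 ± 0.12 in the former. In the interaction 4 were higher, among them *Pdia5* (0.99 ± 0.13), *Qsox1* (0.69 ± 0.15) and *Prdx4* (0.41 ± 0.12), and *Qsox1* was higher in RYGB HFD relative to RYGB Chow by 0.45 ± 0.11.

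Of 25 further genes of the translocon, signal peptidase and oligosaccharyl transferase, 1 was higher and 4 lower in Sham HFD relative to Sham Chow, with *Ssr4* at -0.51 ± 0.09, *Sec61g* at -0.77 ± 0.16 and *Spcs2* at -0.31 ± 0.08. In RYGB HFD relative to Sham HFD 1 was higher (*Ssr4*, 0.31 ± 0.09) and 2 lower (*Magt1*, -0.52 ± 0.10, and *Ssr1*, -0.25 ± 0.08). *Spcs2* was also lower in RYGB HFD relative to RYGB Chow (-0.45 ± 0.08). Of 23 further genes of glycoprotein quality control and degradation, 1 was higher and 5 lower in Sham HFD relative to Sham Chow, led by *Aup1* (-0.32 ± 0.07), *Ube2j2* (-0.41 ± 0.09) and *Ganab* (-0.26 ± 0.07). In RYGB HFD relative to Sham HFD 3 were higher and 2 lower, led by *Mogs* (0.51 ± 0.10), *Man1b1* (-0.36 ± 0.09) and *Ubxn4* (-0.28 ± 0.08), and in the interaction *Man1b1* was lower (-0.50 ± 0.12).

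Of 37 amino acid and stress-response targets of ATF4 29 were tested, of which 4 were higher and 3 lower in Sham HFD relative to Sham Chow, and 2 were higher and 2 lower in RYGB HFD relative to Sham HFD, which is near the shares of all tested genes. The amino acid transporter *Slc38a2* differed by -0.84 ± 0.13 and 0.62 ± 0.13 in these contrasts, *Vldlr* by 1.30 ± 0.27 and -1.77 ± 0.27, and *Sesn2* by 0.90 ± 0.20 and -0.80 ± 0.20. In the interaction 0 were higher and 2 lower, *Vldlr* at -1.91 ± 0.38 and *Sesn2* at -1.18 ± 0.29. In RYGB Chow vs. RYGB HFD edgeR called 0 of the 29, with 10 at an unadjusted p under 0.05 and 3 lower by DESeq2, and the list's median was -0.24. RYGB Chow holds replicate 3, the highest of the 20 mice for *Atf4*, *Asns* and *Chac1*. The list was not counted without that mouse, and its part in these values was not tested.

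Of 17 other regulators of the response, 3 were higher and 1 lower in Sham HFD relative to Sham Chow, with *Creb3l1* at 1.07 ± 0.29, *Eif2ak2* at 0.36 ± 0.11 and *Tmbim6* at 0.19 ± 0.06. In RYGB HFD relative to Sham HFD 0 were higher and 2 lower, *Bet1* at -0.63 ± 0.12 and *Tmbim6* at -0.28 ± 0.06. *Creb3l1* averaged 2.07 CPM in Sham HFD, near the filter of 2 CPM in 3 mice, and 0.970 to 1.26 CPM in the other groups. Of 19 tested heat shock proteins of the cytosol and mitochondria, 2 were higher and 3 lower in Sham HFD relative to Sham Chow, led by *Hspa4l* (0.70 ± 0.12), *Hspa9* (-0.27 ± 0.06) and *Hspd1* (-0.25 ± 0.06). In RYGB HFD relative to Sham HFD 1 was higher and 5 lower, led by *Hspb1* (-1.58 ± 0.30), *Hspa8* (0.54 ± 0.10) and *Hspa4l* (-0.62 ± 0.12), and in the interaction *Hspa8* was higher (0.51 ± 0.15).

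Of 6 genes known to be bound by CREB3L3, 2 were higher and 0 lower in Sham HFD relative to Sham Chow, where *Creb3l3* itself was lower, while the list's median was -0.07. *Apoa4*, an apolipoprotein, had 874 ± 341 CPM in Sham HFD, 105 ± 36.6 in RYGB HFD, 65.2 ± 14.0 in Sham Chow and 86.1 ± 79.7 in RYGB Chow (SD, n = 5). Its differences were 3.74 ± 0.44 in Sham Chow vs. Sham HFD, -3.06 ± 0.43 in Sham HFD vs. RYGB HFD and -3.46 ± 0.58 in the interaction. The lipid droplet gene *Cidec* differed by 1.65 ± 0.53 and -2.66 ± 0.56 in the first 2, and *Apcs*, serum amyloid P, by 0.84 ± 0.16 in Sham HFD vs. RYGB HFD.

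Surgery on chow gave 0 calls in these 7 lists with edgeR or with DESeq2, and 0 to 3 per list had an unadjusted p under 0.05. Of 14 tested core clock genes, given because ER chaperones vary over the day, 1 passed in any contrast, *Nr1d1* in Sham HFD vs. RYGB HFD (0.42 ± 0.14, adjusted p = 0.0376).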

How the data were processed

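Liver RNA of 20 mice, 5 per group, was sequenced as 1 poly(A)-selected, dUTP-stranded library per mouse. Per the labels and the study's methods, the authors trimmed reads with Trimmomatic 0.36, aligned them to mm10 with HISAT2 2.1.0 and deposited raw counts per Ensembl gene made with featureCounts 1.5.0-p3. The annotation release, the strand setting and the handling of reads with several positions are not given in the sources used here. Symbols, positions and exon lengths came from GENCODE M21. The counts were tested as deposited by the quasi-likelihood method of edgeR 4.0.16 in R 4.3.3 with TMM factors in a single model of the 4 groups. P-values were two-sided and were adjusted by Benjamini-Hochberg over the 12289 genes of at least 2 CPM in at least 3 mice. The filter used total counts, and printed CPM values are TMM-scaled. Totals of 14604854 to 22537498 counts set the precision of low genes, and they come from PCR reads without molecular identifiers, whose counting error alone they bound. Of the sample columns 0 were identical and 0 were left unmapped.

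Values in every mouse are given for members with an adjusted p under 0.05 in any contrast or the interaction, and always for *Hspa5*, *Xbp1*, *Creb3l3*, *Atf4*, *Ddit3*, *Atf3*, *Asns* and *Chac1*. Of the other lists the 3 genes with the smallest adjusted p under 0.05 in a contrast are named. Members, lists and rules were chosen with earlier results of these data known, so a list's counts are no independent support. *Pdia4*, *Sec61b*, *Edem1*, *Sel1l*, *Derl3* and *Ppp1r15a* were picked out after their values were seen. Alternatives were DESeq2 1.42.0, RLE factors, a minimum of 5 CPM or none, library size only, only the groups of the contrast, a replicate block, and leaving out each mouse. The procedure was tested on simulated data. Python 3.11.15, pandas 2.3.3, numpy 2.4.6 and matplotlib 3.10.9 made tables and plots. The labels name no sequencing batch. Promoter windows are from RefSeq.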

Additional observations from a re-analysis of the deposited data

Results flagged for a closer look

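In 148 sets of 5 mice (37 members in 4 groups), 5 single values lay apart from the other 4 of their set by Dixon's criterion. For independent sets chance gives about 1 in 20, or 7.4. The sets are not independent, because members vary together within mice, so 5 beside 7.4 is no test. RYGB Chow replicate 3 was apart for *Asns*, at 30.4 CPM where the others had 1.67 to 3.65, and for *Derl3*, at 5.77 CPM where the others had 0.684 to 1.45. Sham Chow replicate 2 was apart for *Asns*, at 10.1 CPM where the others had 0.509 to 1.45, and for *Ddit3*, at 6.37 CPM where the others had 4.498 to 4.97. Sham HFD replicate 3 was apart for *Sec61a1*, at 121 CPM where the others had 108.6 to 112.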

How the results depend on the processing

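The 15 called differences of the members kept their direction in all 403 alternative values, and 369 of these also stayed past the threshold while 34 did not. The counts of members called moved by more than 1.5 times under these settings. DESeq2 called 2 members higher in Sham Chow vs. Sham HFD, and 1 higher and 1 lower in the interaction. With library size only, 4 were higher and 3 lower in Sham Chow vs. Sham HFD, 8 lower in Sham HFD vs. RYGB HFD and 1 lower in the interaction. With only the groups of the contrast in the fit, 2 were higher in Sham Chow vs. Sham HFD, 7 lower in Sham HFD vs. RYGB HFD and 0 lower in RYGB Chow vs. RYGB HFD. The cause was not tested. Without 1 mouse, the counts ran from 1 to 2 higher and 4 to 8 lower in Sham Chow vs. Sham HFD (4 without Sham HFD replicate 2 or 3; 2 higher, with any of 9 mice left out), 1 to 4 lower in Sham HFD vs. RYGB HFD (1 without Sham HFD replicate 3 or 5 or RYGB HFD replicate 2), 0 to 2 lower in RYGB Chow vs. RYGB HFD (2 without RYGB Chow replicate 4, 0 without RYGB HFD replicate 3 or 4), and 0 to 1 higher and 0 to 2 lower in the interaction.

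The chaperone median less the Atf4 arm median in Sham Chow vs. RYGB Chow was -0.22 with a minimum of 5 CPM, which leaves *Atf3* and *Asns* out, and ran from -0.72 to -0.044 without 1 mouse. In Sham HFD vs. RYGB HFD it ran from -0.50 to 0.0097 (without RYGB HFD replicate 5), and for the interaction from -0.31, without RYGB Chow replicate 3, to 0.34. With the replicate block it was 0.0498 in Sham HFD vs. RYGB HFD. The groups share replicate numbers 1 to 5, but the numbers do not pair the mice: deviations of same-numbered mice correlated at -0.26 to 0.16 over 30 pairs, 5 of them over 0.1, and 3 of the 20 mice correlated best with their own number. The replicate block ended no call of a member and added *Sel1l*, lower in Sham HFD vs. RYGB HFD, as did 4 of the other settings. Depth limits *Atf3* and *Asns*, which had as few as 3 reads and 1 read in a mouse.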
